A study of Mus musculus with 6 samples.

Results

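The genes described here are the nuclear receptors CAR (Nr1i3) and PXR (Nr1i2) and 7 cytochrome P450 genes that are known targets or relatives of known targets of these receptors: Cyp2b10, Cyp3a11, Cyp3a13, Cyp3a25, Cyp2c55, Cyp2c65 and Cyp2c66. The list, drawn up with earlier results of these data known, was matched by symbol to the Ensembl gene IDs of the expression tables. These 9 genes stand among 51912 in the tables, of which 51633 matched a symbol and 13644 had enough reads to be tested. All 9 passed that filter on low counts. RNA had been sequenced from sorted small intestinal epithelium of C57BL/6 mice, with 2 libraries in each of 3 groups. Antigen-free (AF) mice had neither a microbiota nor foreign antigens in their food, germ-free (GF) mice lacked a microbiota, and specific pathogen free (SPF) mice had a microbiota without particular pathogens. No further genotype or treatment is labelled for any group. The libraries are AF replicates 2 and 3, GF replicates 1 and 3, and SPF replicates 3 and 4. No age of the mice and no make-up of the diets is stated in the sources used, and the tables of each group bear their own date-like mark. A change of diet other than its antigens, or a batch by date, cannot be told apart from the groups. Nothing says that the 2 libraries of a group came from separate animals, so the p-values speak only to the spread among these samples, which may be technical.

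CAR and PXR are receptors of foreign compounds, bile acids and steroids. Each pairs with a retinoid X receptor and binds spaced or everted pairs of a short hexamer near the genes it controls, among them cytochromes P450 of the Cyp2b, Cyp2c and Cyp3a subfamilies, which oxidise drugs, plant compounds, steroids and fatty acids. In the small intestine these enzymes sit mainly in the absorptive cells of the villus, where they meet compounds from food before the liver does. Cyp2b10 is the usual marker of CAR activity in mouse liver and Cyp3a11 that of PXR activity, although the receptors share many targets and activators.

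The 250 bases before the RefSeq start (GRCm38.p6) are shown for 6 of the cytochrome genes. RefSeq starts can differ from the GENCODE gene coordinates given further below. The windows of Cyp3a11 and Cyp2b10 reach inside the genes as bounded there, and distances are counted from the RefSeq start. Cyp2b10, Cyp3a11 and Cyp2c55 are the genes on which the comparison of AF with GF turns, Cyp3a13 is the cytochrome whose libraries overlapped between those groups, and Cyp2c65 and Cyp2c66 are neighbours with a similar stretch of sequence. Each is written 5′ to 3′ on the strand of its gene, and capitals mark the hexamers AGGTCA and AGTTCA on either strand, the half-sites that the receptors read. The windows are chr7:25897408-25897657 on the plus strand for Cyp2b10, chr5:145879855-145880104 on the minus strand for Cyp3a11, chr5:137921620-137921869 on the minus strand for Cyp3a13, chr19:39006769-39007018 on the plus strand for Cyp2c55, chr19:39060756-39061005 on the plus strand for Cyp2c65 and chr19:39113648-39113897 on the plus strand for Cyp2c66.
Cyp2b10: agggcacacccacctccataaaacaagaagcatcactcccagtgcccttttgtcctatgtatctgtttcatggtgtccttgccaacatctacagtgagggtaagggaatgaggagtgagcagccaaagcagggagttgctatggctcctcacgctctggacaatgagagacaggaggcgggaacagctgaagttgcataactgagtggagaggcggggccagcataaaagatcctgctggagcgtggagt
Cyp3a11: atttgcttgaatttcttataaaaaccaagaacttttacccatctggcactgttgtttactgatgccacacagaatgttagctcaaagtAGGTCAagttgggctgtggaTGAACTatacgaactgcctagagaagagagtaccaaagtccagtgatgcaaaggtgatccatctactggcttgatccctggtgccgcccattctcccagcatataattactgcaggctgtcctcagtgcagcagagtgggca
Cyp3a13: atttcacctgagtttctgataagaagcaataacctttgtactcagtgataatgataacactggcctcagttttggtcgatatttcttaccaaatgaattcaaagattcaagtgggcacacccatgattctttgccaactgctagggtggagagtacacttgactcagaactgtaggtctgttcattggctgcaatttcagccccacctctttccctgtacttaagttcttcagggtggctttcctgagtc
Cyp2c55: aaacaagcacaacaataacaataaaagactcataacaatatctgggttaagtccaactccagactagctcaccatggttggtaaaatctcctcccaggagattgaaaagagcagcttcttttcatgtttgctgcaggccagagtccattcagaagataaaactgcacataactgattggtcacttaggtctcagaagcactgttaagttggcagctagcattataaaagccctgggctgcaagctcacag
Cyp2c65: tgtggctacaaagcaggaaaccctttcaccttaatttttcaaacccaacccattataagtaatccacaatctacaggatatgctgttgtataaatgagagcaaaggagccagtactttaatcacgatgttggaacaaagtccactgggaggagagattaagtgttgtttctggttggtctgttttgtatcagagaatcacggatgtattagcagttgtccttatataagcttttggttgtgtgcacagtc
Cyp2c66: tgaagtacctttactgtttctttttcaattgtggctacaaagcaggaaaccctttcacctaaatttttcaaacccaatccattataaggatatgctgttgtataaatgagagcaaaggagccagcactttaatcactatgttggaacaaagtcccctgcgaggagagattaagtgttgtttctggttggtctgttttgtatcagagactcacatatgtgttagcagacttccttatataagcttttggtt

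Among the 9 genes, half-sites stood in the windows of 2. The Cyp3a11 window holds AGGTCA, its nearer edge 157 bases before the start, and AGTTCA at 137 bases. The Cyp3a25 window, the first of 2 RefSeq entries for that gene, holds AGGTCA at 171 and at 150 bases. Of 32817 windows of the same length in the RefSeq table, 24.2% hold either hexamer (AGGTCA 14.0%, AGTTCA 11.9%). A direct repeat of the hexamers with 3 or 4 bases between them was in the window of none of the 9 genes and in 0.0122% and 0.0244% of all windows. An everted repeat with 6 bases between was in none of the 9 and in 0.00914% of all windows. All 3 were searched on both strands with any combination of the hexamers. Such exact repeats are so rare in all windows that their absence from 9 says little. Altered hexamers and sequence further upstream were not searched. The search therefore cannot show whether a gene lacks receptor sites. TATAAA, searched on both strands, was in the windows of Cyp3a11, Cyp2c55, Cyp2c65 and Cyp2c66 and in 12.4% of all windows. The longest stretch that 2 of the 9 windows had in common was 48 bases in Cyp2c65 and Cyp2c66, against 11 bases or fewer in every other pair.

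The cytochrome genes lie in clusters. On GRCm38, Cyp2c55 (chromosome 19, 39007019 to 39042693), Cyp2c65 (39061015 to 39093944) and Cyp2c66 (39113898 to 39187072) follow each other on the plus strand with 18321 and 19953 bases between them. Cyp3a11 (chromosome 5, 145854426 to 145879964) and Cyp3a25 (145977194 to 146009618) are 97229 bases apart on the minus strand, and Cyp3a13 (137892932 to 137921619, minus strand) lies 7932806 bases away from Cyp3a11. Cyp2b10 is on chromosome 7 (25897620 to 25926624, plus strand), Nr1i2 on chromosome 16 (38248323 to 38294824, minus strand) and Nr1i3 on chromosome 1 (171213970 to 171220701, plus strand). RSEM, which divides reads that match several genes, gave a posterior SD of at most 1.47% of the count for Cyp2c66, 1.20% for Nr1i3, 0.393% for Cyp2c65 and less for the others. Nr1i3 overlaps Tomm40l, a gene of the opposite strand, over 4691 bases from gene start to end, introns included. The overlap of their exons was not computed. Without a stated strand setting, it is not known whether reads from any shared exon bases of Nr1i3 and Tomm40l were told apart by strand.

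The libraries held 16109488 to 19417054 expected counts, and levels below are CPM on totals scaled by TMM (factors 0.791 to 1.41) unless TPM is named. Intervals cover the spread as fitted, not other sources of error. SPF replicate 4 stood apart, with a summed level of 12 enterocyte markers of 46854 CPM, against 16431 to 24852 CPM in the other 5 libraries. Its summed level of 12 crypt and cycling markers was 103 CPM, against 252 to 649 CPM in the others. Sex-linked transcripts went with the groups: Y-linked genes had reads in all AF and GF libraries and none in the SPF libraries, and Xist stood at 129.7 and 96.6 CPM in SPF and at 14.8 CPM in GF replicate 3, the highest of the other 4. Sex therefore cannot be told apart from group in the comparisons with SPF. GF replicate 3 held reads of both Xist and Y-linked genes. The reason was not tested, and AF versus GF also uses that library. In the epithelium as labelled, Vil1, a brush border protein of enterocytes, stood at 1846 to 3646 CPM, and 4 B cell markers summed to at most 0.779 CPM. Of 9 hepatocyte markers, Ahsg, Fgb and Fga were at 0 in every library and Alb at 1.01 CPM or less. The 9 summed to 20.1 and 34.2 CPM in AF, 9.99 and 11 CPM in GF, and 15.6 and 2.26 CPM in SPF. The 5 of them that were tested were all higher in AF, with median log2 fold changes of 1.91 against GF and 1.81 against SPF. edgeR called 0 of these in either comparison. These are bulk libraries, in which fewer cells of a type and less RNA per cell cannot be told apart.

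In CPM the receptors overlapped between the 3 groups. Nr1i2, the PXR gene (ENSMUSG00000022809), stood at 118.8 and 78 CPM in AF replicates 2 and 3, at 70.5 and 110.3 CPM in GF replicates 1 and 3, and at 76.9 and 122.9 CPM in SPF replicates 3 and 4. Each group held a higher and a lower library, and the groups overlapped on this scale. Nr1i3, the CAR gene (ENSMUSG00000005677), stood at 130.8 and 101.6 CPM in AF, 95.2 and 134.4 CPM in GF, and 83.2 and 177 CPM in SPF, again with full overlap. The means of Nr1i2 were 98.4 ± 28.9 CPM in AF, 90.4 ± 28.2 CPM in GF and 99.9 ± 32.5 CPM in SPF (SD, n = 2 each), so that no neighbours in the order SPF, AF, GF were further apart than their spread. For AF versus GF the log2 fold change of Nr1i2 was 0.12 (SE 0.37, 95% interval -0.79 to 1.04) and that of Nr1i3 0.02 (SE 0.41, -0.99 to 1.02). For AF versus SPF they were -0.02 (95% interval -0.94 to 0.89) for Nr1i2 and -0.16 (-1.17 to 0.84) for Nr1i3. For GF versus SPF they were -0.14 (-1.06 to 0.77) for Nr1i2 and -0.18 (-1.18 to 0.82) for Nr1i3. These intervals span 0 and reach from -1.18 to 1.04 log2 units. Per 1000 CPM of the 12 enterocyte markers the groups did not overlap: Nr1i2 had 5.38 and 4.75 CPM in AF, 3.8 and 4.44 CPM in GF, and 3.35 and 2.62 CPM in SPF, and Nr1i3 had 5.92 and 6.18 CPM in AF, 5.14 and 5.41 CPM in GF, and 3.63 and 3.78 CPM in SPF. AF was the highest and SPF the lowest in both genes on that scale. The share of all genes that did not overlap on it was not computed. With libraries scaled by these markers edgeR called neither gene. For AF versus SPF the log2 fold changes were then 0.65 for Nr1i2 and 0.59 for Nr1i3, against a median over all genes of 0.61. For GF versus SPF they were 0.38 and 0.42, against 0.46, so the receptors stood near the shift of all genes. On the TPM scale, which takes no TMM factor, Nr1i2 stood at 36 and 31.4 TPM in AF, 44.7 and 39 TPM in GF, and 45.1 and 44.5 TPM in SPF, and Nr1i3 at 58.4 and 61.2 TPM in AF, 88.6 and 70.1 TPM in GF, and 74.3 and 97.7 TPM in SPF. In TPM both AF libraries lay below all others in both genes. With limma on log2(TPM + 1) the sign of AF versus GF turned, to -0.30 for Nr1i2 and -0.39 for Nr1i3, and the median over all genes itself was -0.36 on that scale.

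**Figure D1:**
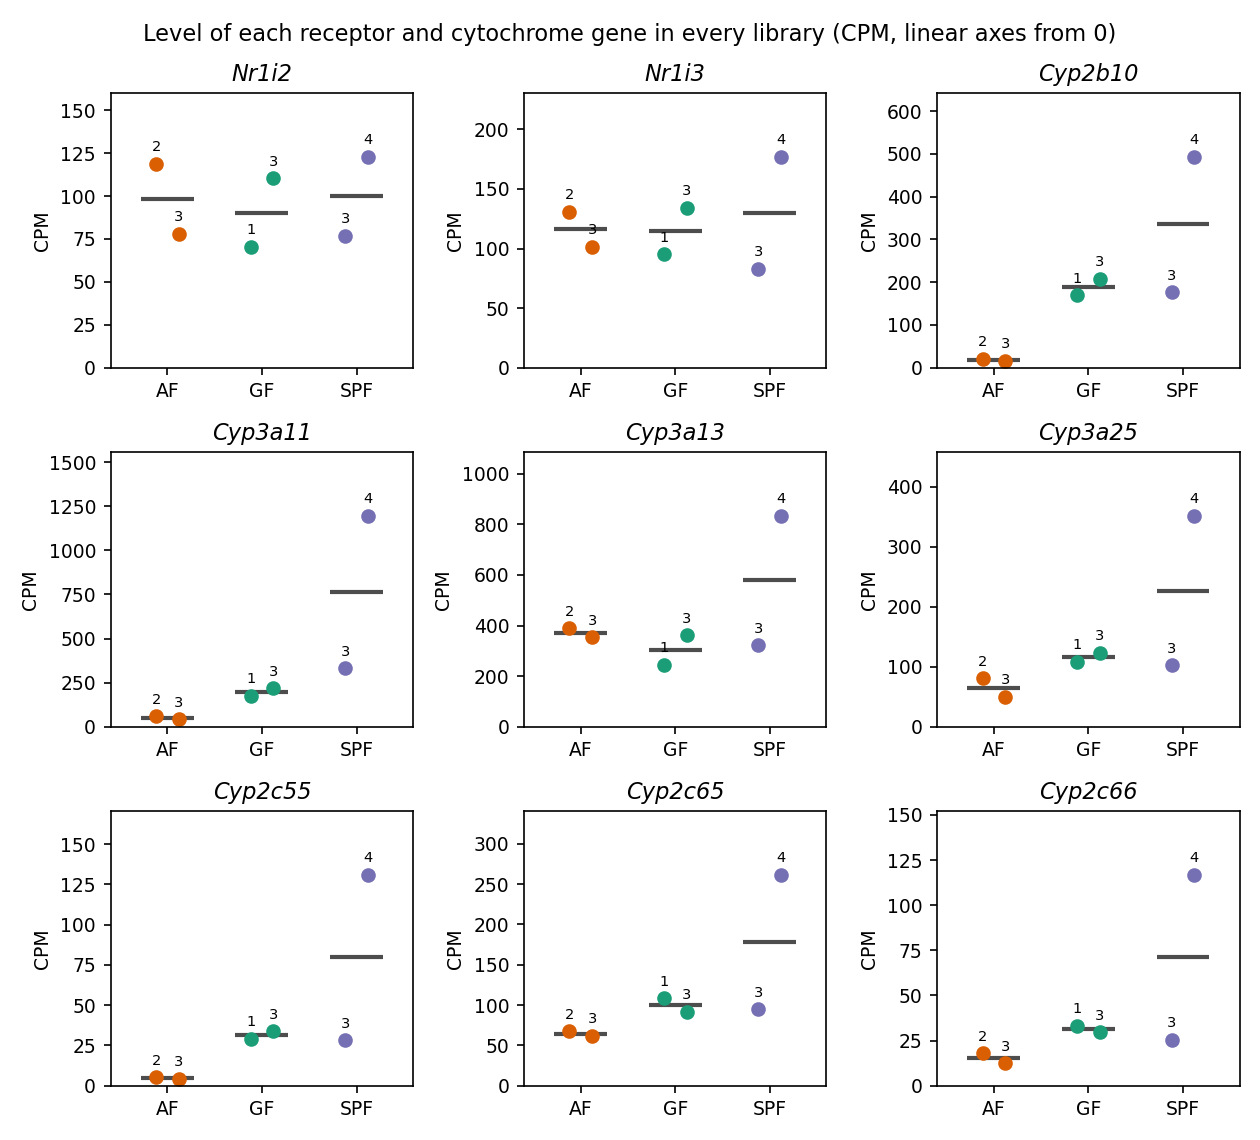
Level of each of the 9 genes in the 6 libraries, in CPM on a linear axis from 0, with the groups AF, GF and SPF from left to right. Each point is a library, labelled with its replicate number, and the bar is the mean of the group; Nr1i2 and Nr1i3 overlap across groups, whereas the AF points of Cyp2b10 (20.6 and 16.2 CPM) lie below all others.

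Cyp2b10, the cytochrome most used as a readout of CAR, was the gene of the 9 that stood furthest apart between AF and GF. It (ENSMUSG00000030483) was at 20.6 and 16.2 CPM in AF replicates 2 and 3, at 169.6 and 207.4 CPM in GF replicates 1 and 3, and at 176.5 and 493.3 CPM in SPF replicates 3 and 4. Both AF libraries lay below all others, and the GF and SPF libraries overlapped. The AF mean was 10.2-fold below the GF mean by the fit, with a log2 fold change of -3.36 (SE 0.54, 95% interval -4.67 to -2.04). In edgeR's quasi-likelihood test its unadjusted p was 0.000751, rank 13 of 13644, and its adjusted p 0.788. Against SPF the AF log2 fold change was -4.19 (SE 0.56, edgeR adjusted p = 0.198), 18.2-fold lower. For GF versus SPF it was -0.83 (SE 0.49, 95% interval -2.03 to 0.37), and 0.09 without SPF replicate 4. The difference between AF and GF was as large per amount of enterocyte marker RNA: Cyp2b10 had 0.931 and 0.987 CPM per 1000 CPM of enterocyte markers in AF, 9.15 and 8.35 in GF, and 7.7 and 10.5 in SPF. All Cyp2b reads were those of Cyp2b10, since Cyp2b9, Cyp2b13, Cyp2b19 and Cyp2b23 were at 0 counts in the 6 libraries.

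Of the 3 Cyp3a genes, Cyp3a11 stood below the other groups in AF, whereas the AF values of Cyp3a13 lay among those of the others. Cyp3a11 (ENSMUSG00000056035), the main drug-oxidising Cyp3a of the mouse and the usual readout of PXR, stood at 58 and 43.1 CPM in AF, 176.4 and 217.7 CPM in GF, and 331.7 and 1196 CPM in SPF. The 3 groups were ordered without overlap, AF lowest and SPF highest, and SPF replicate 4 was 3.61 times SPF replicate 3. Its log2 fold change was -1.96 (SE 0.61, 95% interval -3.46 to -0.46) for AF versus GF, -3.92 (SE 0.67, -5.54 to -2.29) for AF versus SPF and -1.96 (SE 0.61, -3.45 to -0.46) for GF versus SPF. Adjusted p-values from edgeR's quasi-likelihood test were 1, 0.293 and 0.738, and the last log2 fold change was -0.75 without SPF replicate 4. Per 1000 CPM of enterocyte markers, Cyp3a11 had 2.63 and 2.62 CPM in AF, 9.52 and 8.76 CPM in GF, and 14.5 and 25.5 CPM in SPF, so that the order of the groups also held on that scale.

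Cyp3a13 (ENSMUSG00000029727), a Cyp3a enzyme known to be expressed in the intestine, stood at 389.2 and 354 CPM in AF, 244.6 and 362.2 CPM in GF, and 322.8 and 834.1 CPM in SPF. The AF libraries lay within the range of the others. Its log2 fold change was 0.29 (SE 0.50, 95% interval -0.92 to 1.50) for AF versus GF, which became -0.0015 with library totals and -0.12 on log2(TPM + 1). It was -0.64 (SE 0.50) for AF versus SPF and -0.93 (SE 0.50) for GF versus SPF. Per 1000 CPM of enterocyte markers Cyp3a13 had 17.6 and 21.5 CPM in AF, 13.2 and 14.6 CPM in GF, and 14.1 and 17.8 CPM in SPF, with AF above GF and overlapping SPF. Cyp3a25 (ENSMUSG00000029630), its relative in the Cyp3a11 cluster, stood between these patterns, at 80.7 and 49.6 CPM in AF, 108.1 and 123.3 CPM in GF, and 102.4 and 351.6 CPM in SPF. AF lay below GF and SPF, which overlapped, with log2 fold changes of -0.83 (SE 0.58, 95% interval -2.25 to 0.59) for AF versus GF and -1.80 (SE 0.60) for AF versus SPF. Per 1000 CPM of enterocyte markers Cyp3a25 had 3.65 and 3.02 CPM in AF, 5.83 and 4.96 CPM in GF, and 4.47 and 7.51 CPM in SPF, again with AF lowest.

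By share of TPM, Cyp3a13 was the largest part of the Cyp3a transcripts in AF. It made up 65.7 and 72.4% of all Cyp3a TPM in AF, 38.3 and 43.2% in GF, and 35.6 and 28.6% in SPF. Cyp3a11 made up 12.6 and 11.3% in AF, 35.4 and 33.3% in GF, and 46.9 and 52.6% in SPF. For both genes the shares of AF lay outside those of the other groups, whereas the share of Cyp3a25 was 20.8 and 15.5% in AF, 26.1 and 23.3% in GF, and 17.2 and 18.6% in SPF. The 6 other Cyp3a genes listed held less than 1% of the Cyp3a TPM between them in every library. Shares within a library do not depend on the scaling between libraries, and they show unequal change, not which gene changed. Summed Cyp3a TPM was 153.5 and 168 in AF, 345.8 and 252.8 in GF, and 454.6 and 902.4 in SPF.

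**Figure D2:**
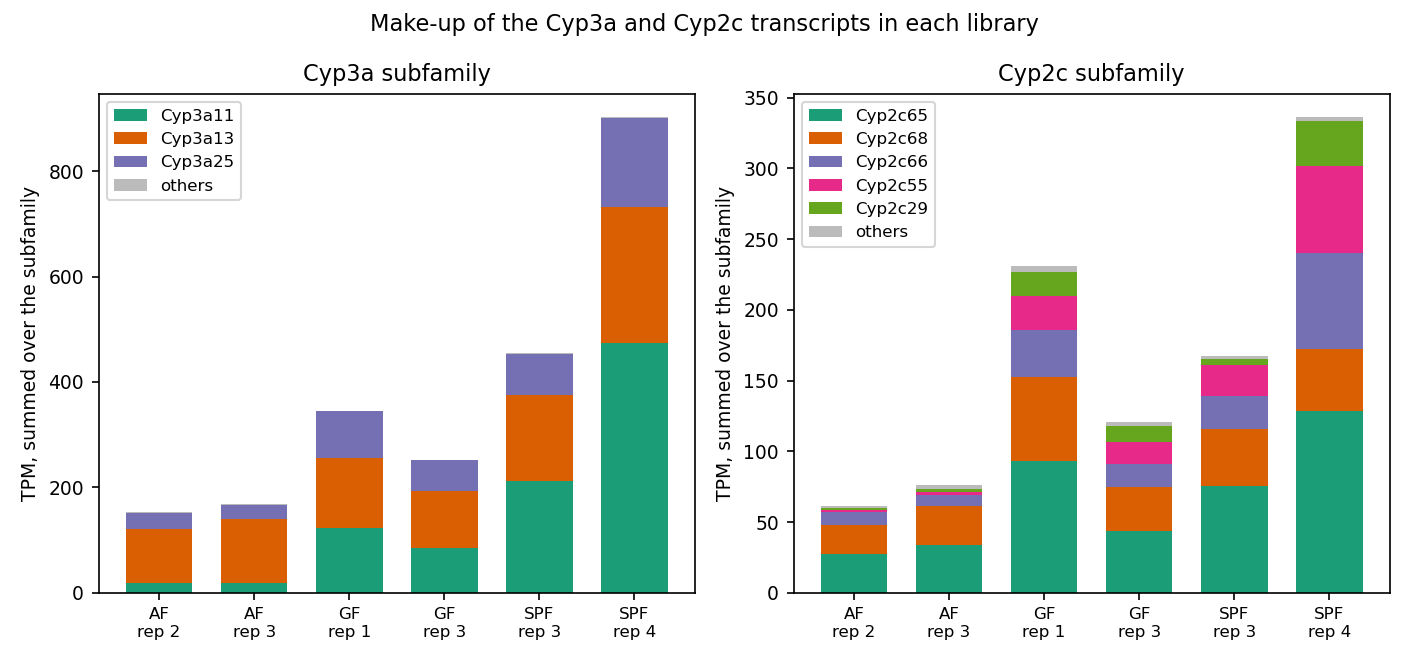
Summed TPM of the Cyp3a genes (left panel) and the Cyp2c genes (right panel) in each library, AF, GF and SPF from left to right, on linear axes from 0. Coloured segments are the genes, largest mean at the bottom, and grey is the sum of the rest; Cyp3a13 makes up 65.7 and 72.4% of the bar in AF, against 28.6 to 43.2% in GF and SPF.

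The 3 Cyp2c genes, enzymes of the digestive tract that oxidise arachidonic acid, stood lower in AF to unequal extents. Cyp2c55 (ENSMUSG00000025002), which is inducible through CAR and PXR in mouse liver, was at 5.26 and 4.22 CPM in AF, 29.1 and 33.9 CPM in GF, and 28.3 and 131 CPM in SPF. AF lay below all other libraries, and GF and SPF overlapped. The log2 fold change was -2.73 (SE 0.70, 95% interval -4.45 to -1.02) for AF versus GF, 6.64-fold lower, at an edgeR unadjusted p of 0.00789 and an adjusted p of 1. It was -4.07 (SE 0.74, edgeR adjusted p = 0.304) for AF versus SPF and -1.34 (SE 0.65) for GF versus SPF, the last being 0.15 without SPF replicate 4. The AF values rest on 67 and 71 expected counts. Per 1000 CPM of enterocyte markers Cyp2c55 had 0.238 and 0.257 CPM in AF, 1.57 and 1.36 CPM in GF, and 1.23 and 2.8 CPM in SPF.

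Cyp2c65 (ENSMUSG00000067231) was at 67.4 and 61.9 CPM in AF, 108.3 and 91.7 CPM in GF, and 95 and 261.5 CPM in SPF. Cyp2c66 (ENSMUSG00000067229) was at 18.1 and 12.5 CPM in AF, 33.1 and 29.5 CPM in GF, and 25.3 and 116.9 CPM in SPF. For both, AF lay below GF and SPF, and GF and SPF overlapped. The AF versus GF log2 fold changes were -0.63 (SE 0.47, 95% interval -1.77 to 0.51) for Cyp2c65 and -1.04 (SE 0.66, -2.65 to 0.58) for Cyp2c66. For AF versus SPF they were -1.46 (SE 0.48) and -2.22 (SE 0.68). Per 1000 CPM of enterocyte markers the AF and GF libraries of Cyp2c65 overlapped, at 3.05 and 3.77 CPM in AF, 5.84 and 3.69 CPM in GF, and 4.14 and 5.58 CPM in SPF. Cyp2c66 had 0.818 and 0.759 CPM in AF, 1.79 and 1.19 CPM in GF, and 1.1 and 2.49 CPM in SPF on that scale, still without overlap between AF and the others.

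Within the Cyp2c subfamily, the share of TPM taken by Cyp2c55 was 3.38 and 2.92% in AF, 10.4 and 12.9% in GF, and 13 and 18.4% in SPF. Cyp2c65 held 45.1 and 44.4% in AF, 40.3 and 36.4% in GF, and 45.2 and 38.2% in SPF, overlapping between AF and SPF. Cyp2c68, a further Cyp2c gene of this cluster, held 33.2 and 35.9% in AF, 25.6 and 25.3% in GF, and 24.1 and 13.1% in SPF. Cyp2c29, which is inducible through CAR in mouse liver, was at 2.04 and 3.03 CPM in AF, 18.2 and 21.6 CPM in GF, and 4.9 and 59.6 CPM in SPF, with an AF versus GF log2 fold change of -2.96 (SE 1.08). Its SPF libraries lay on either side of the GF libraries.

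Compared by TPM, which is per transcript length, the order of the cytochromes within a library differed between groups. In AF, Cyp3a13 was the highest of the 7 (100.9 and 121.6 TPM), Cyp2b10 stood at 8.52 and 8.91 TPM, and Cyp2c55 was the lowest (2.08 and 2.22 TPM). In GF, Cyp2b10 (147.1 and 100.1 TPM), Cyp3a13 (132.5 and 109.3 TPM) and Cyp3a11 (122.5 and 84.3 TPM) were the 3 highest and overlapped. In SPF, Cyp3a11 was the highest (213 and 474.4 TPM). Nr1i3 stood above Nr1i2 in all 6 libraries on this scale. Whether its reads include some from Tomm40l is not known.

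Read across the whole table, none of the 9 genes passed in any comparison. In AF versus GF, 6 of 9 genes were lower in AF and edgeR's quasi-likelihood test called 0 of 9 at an adjusted p below 0.05, with 0.0147% of all tested genes called. At an unadjusted p below 0.05, 3 of 9 were below the threshold, Cyp2b10, Cyp3a11 and Cyp2c55, as were 491 of all 13644 (3.60%). Other tests on the same counts called 2 of 9: DESeq2's Wald test gave adjusted p-values of 1.31e-07 for Cyp2b10 and 0.0173 for Cyp2c55, with 0.381% of the genes with an adjusted p called. edgeR's likelihood ratio test gave adjusted p-values of 1.48e-05 for Cyp2b10 and 0.0363 for Cyp2c55, with 0.388% of all genes called. The quasi-likelihood test also called these 2 genes when only the AF and GF libraries were fitted (0.0586% of all genes called), without SPF replicate 3 (0.0806%) and without SPF replicate 4 (0.0513%). In these 3 fits the spread came from the AF and GF libraries alone, so the fits are nearly the same analysis and not separate support. Neither gene was called when an AF or GF library was left out. The log2 fold change then ranged from -3.54 to -3.20 for Cyp2b10 and from -2.90 to -2.59 for Cyp2c55. In 6 of 9 genes both AF libraries lay below both GF libraries, which was so for 17.8% of all tested genes. The median log2 fold change of the 9 was -0.83, against -0.02 over all genes.

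**Figure D3:**
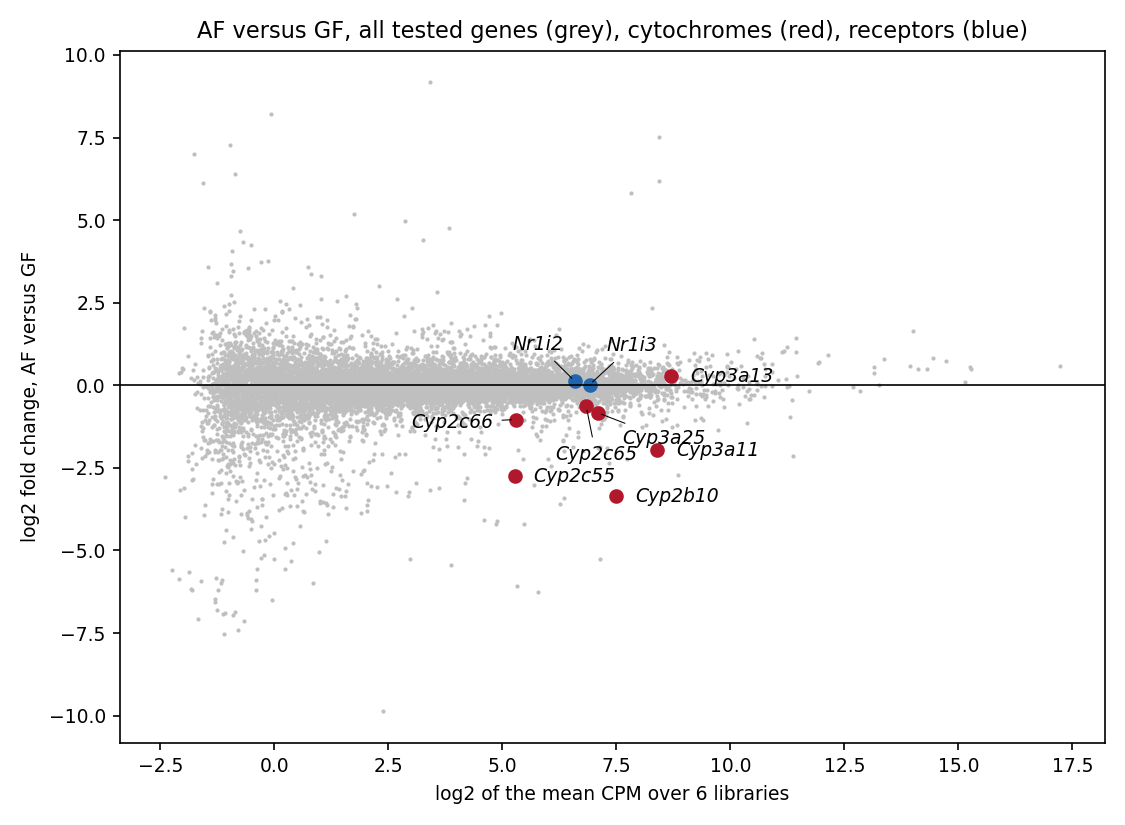
Log2 fold change of AF versus GF (y axis) against the log2 of the mean CPM over 6 libraries (x axis) for 13644 tested genes in grey, with the 7 cytochromes in red and the 2 receptors in blue. Cyp2b10 (-3.36), Cyp2c55 (-2.73) and Cyp3a11 (-1.96) lie below the bulk of genes of similar level, and Nr1i2, Nr1i3 and Cyp3a13 lie near 0.

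In AF versus SPF, 9 of 9 genes were lower in AF (6 of 9 with libraries scaled by enterocyte markers), and the quasi-likelihood test called 0 of 9, with 0.0440% of all genes called. Unadjusted p-values were below 0.05 for the 6 genes Cyp2b10, Cyp3a11, Cyp3a25, Cyp2c55, Cyp2c65 and Cyp2c66, as for 1540 of all genes (11.3%). DESeq2 called Cyp2b10, Cyp3a11, Cyp2c55 and Cyp2c66 (2.03% of all genes with an adjusted p), and the likelihood ratio test called Cyp2b10, Cyp3a11 and Cyp2c55 (2.18%). In the same 6 genes both AF libraries lay below both SPF libraries, against 22.6% of all genes, and the median of the 9 was -1.80. Without SPF replicate 4 the quasi-likelihood test called Cyp2b10 and Cyp2c55, with 0.0953% of all genes called, and without SPF replicate 3 it called 6 of 9, with 4.76% of all genes called. Both comparisons with SPF share the SPF libraries, in which sex-linked transcripts differed from the other groups; the part of sex in the result cannot be told apart from that of the group. SPF replicate 4 also stood apart in enterocyte markers, and with libraries scaled by those markers the log2 fold change of AF versus SPF was -3.37 for Cyp2b10 (edgeR adjusted p = 0.0191), -3.06 for Cyp3a11 (0.061) and -3.16 for Cyp2c55 (0.149).

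In GF versus SPF, 9 of 9 genes were lower in GF (7 of 9 with libraries scaled by enterocyte markers), and the quasi-likelihood test called 0 of 9, with 0.0147% of all genes called and 1 of 9, Cyp3a11, below an unadjusted p of 0.05 (6.71% of all genes). DESeq2 (0.586% of all genes) and the likelihood ratio test (0.711%) also called 0 of 9. The GF libraries lay below both SPF libraries in 1 of 9 genes, Cyp3a11, against 17.1% of all genes. Without SPF replicate 4, Cyp3a11 and Cyp3a13 (-0.0894) stayed lower in GF, whereas the log2 fold changes of Cyp2b10, Cyp3a25, Cyp2c55, Cyp2c65, Cyp2c66, Nr1i2 and Nr1i3 were 0.07 to 0.46, all higher in GF. The receptors also turned without GF replicate 1, to 0.14 for Nr1i2 and 0.0472 for Nr1i3. Without SPF replicate 3 instead, 4 of 9 were called, Cyp3a11, Cyp2c55, Cyp2c65 and Cyp2c66, with 2.95% of all genes called. SPF replicate 4 was 4.63 times SPF replicate 3 in Cyp2c55, 4.61 times in Cyp2c66 and 1.60 times in Nr1i2, beside 2.04 times in the summed enterocyte markers. With AF and GF pooled as microbiota-free mice, 9 of 9 were lower than in SPF, 0 of 9 were called (0.0293% of all genes), and all 4 microbiota-free libraries lay below both SPF libraries in 1 of 9, Cyp3a11 (11.8% of all genes). The test for any difference among the 3 groups called 0 of 9 and 0.0293% of all genes.

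**Figure D4:**
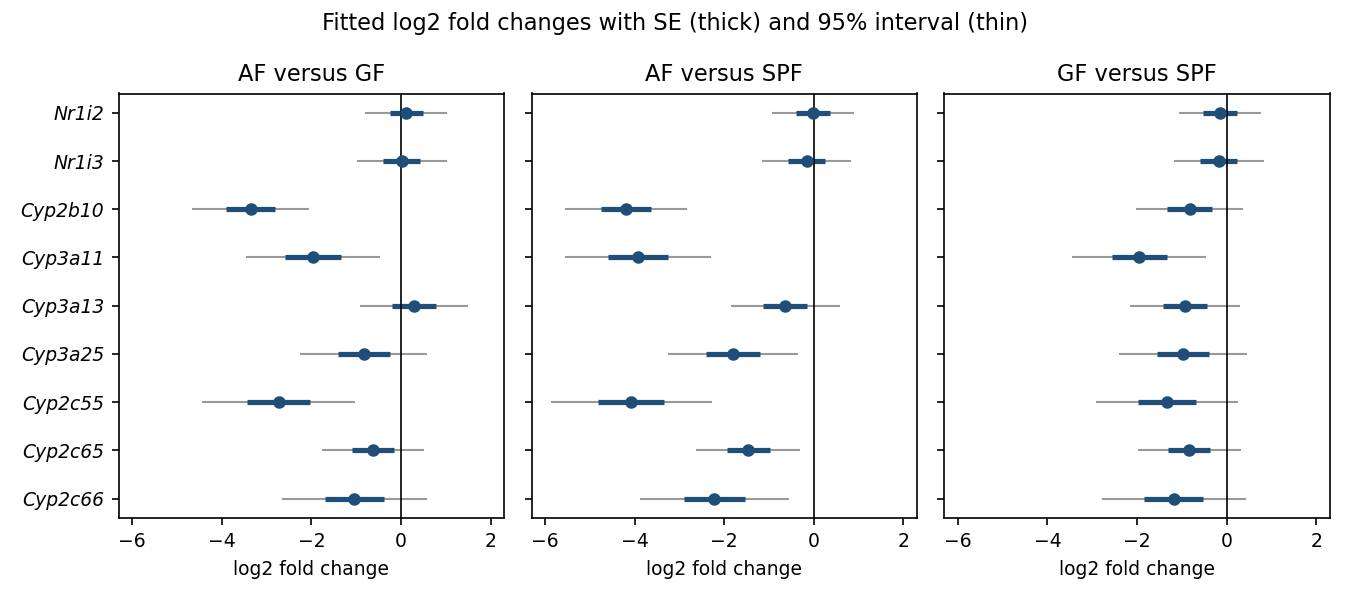
Fitted log2 fold changes of the 9 genes in AF versus GF, AF versus SPF and GF versus SPF (x axes), with 1 SE as a thick line and the 95% interval as a thin line. The intervals of Cyp2b10, Cyp3a11 and Cyp2c55 stay below 0 in both comparisons of AF, and those of Nr1i2 and Nr1i3 span 0 in all 3.

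Markers of other cells were set beside these values. Between AF and GF the enterocyte markers overlapped, with sums of 22095 and 16431 CPM in AF and 18535 and 24852 CPM in GF, 7 of 12 markers lower in AF and a median log2 fold change of -0.10. The 7 markers of T cells and intraepithelial lymphocytes were all lower in AF, with sums of 14.1 and 10.8 CPM in AF, 28.9 and 283 CPM in GF, and 167.2 and 63.3 CPM in SPF. Of these 7, 6 were below an unadjusted p of 0.05 in AF versus GF (3.60% of all genes) and 4 in AF versus SPF (11.3% of all genes). The crypt and cycling sum was 252 and 402 CPM in AF, 649 and 265 CPM in GF, and 568 and 103 CPM in SPF. Mitochondrial genes took 35.3 and 28.7% of the counts in AF, 17.9 and 32.1% in GF, and 18.1 and 27.2% in SPF. With mitochondrial genes left out, the AF versus GF log2 fold change was -3.36 for Cyp2b10 and -2.73 for Cyp2c55, as with them.

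Tuft cell markers summed to 156.1 and 152.6 CPM in AF, 73.5 and 104.3 CPM in GF, and 51.5 and 14 CPM in SPF, with 5 of 5 higher in AF than in SPF and 4 of 5 below an unadjusted p of 0.05. Enteroendocrine markers summed to 1275 and 1744 CPM in AF, 992.2 and 2562 CPM in GF, and 776.4 and 245.8 CPM in SPF, with 5 of 5 higher than in SPF in both AF (3 of 5 below an unadjusted p of 0.05) and GF (5 of 5). Neither list overlapped between SPF and the other groups. Markers of the proximal small intestine, which did not overlap either, summed to 2084 and 1630 CPM in AF, 1943 and 2440 CPM in GF, and 3101 and 6156 CPM in SPF, with medians of -0.85 for AF versus SPF (3 of 6 below an unadjusted p of 0.05) and -0.83 for GF versus SPF (4 of 6). Markers of the distal small intestine overlapped, at 806.8 and 594.7 CPM in AF, 1412 and 572 CPM in GF, and 642.7 and 495.8 CPM in SPF, with 3 of 6 below an unadjusted p of 0.05 for GF versus SPF. In SPF replicate 4 the Paneth and goblet cell sums were 41.3 and 2793 CPM, against 885.8 to 5286 CPM and 11790 to 28996 CPM in the other libraries. Of all genes, 11.3% were below an unadjusted p of 0.05 in edgeR's quasi-likelihood test for AF versus SPF and 6.71% for GF versus SPF. edgeR called 0 markers of these lists in any of the 3 pairs of groups. Apart from the scaling by enterocyte markers, the part of other cells in the cytochrome values was not tested.

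None of the receptors' partners passed the test. Of 15 listed partners and coregulators 14 were tested, and edgeR's quasi-likelihood test called 0 in every comparison. In AF versus GF 5 were lower and 9 higher, with a median log2 fold change of 0.17 against -0.02 over all genes. Rxra, which encodes a retinoid X receptor and was picked with its values in view, had levels of 87 and 89.8 CPM in AF, 90.1 and 86.3 CPM in GF, and 93.3 and 127.2 CPM in SPF. In both comparisons with SPF the gene with the smallest p was Ncor1, a corepressor of nuclear receptors, at 120.8 and 119.4 CPM in AF, 161.2 and 181.1 CPM in GF, and 242.9 and 320.4 CPM in SPF. The log2 fold change of Ncor1 was -1.23 for AF versus SPF (edgeR adjusted p = 0.343) and -0.72 for GF versus SPF (edgeR adjusted p = 0.738).

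Of 9 other receptors of foreign compounds, bile acids and lipids, all tested, 0 were called. Their median log2 fold change was -0.04 for AF versus GF, -0.21 for AF versus SPF and -0.13 for GF versus SPF. Ppara, the fatty acid receptor, had the smallest p in AF versus GF (0.47, edgeR unadjusted p = 0.199). Nr1h4, the bile acid receptor FXR, had it in the comparisons with SPF, at 24.4 and 29 CPM in AF, 32.5 and 29.3 CPM in GF, and 36.5 and 48.8 CPM in SPF. The 6 genes that supply electrons and haem to cytochromes P450 had medians of -0.13 for AF versus GF and -0.61 for AF versus SPF, with 0 called. Cyb5a, cytochrome b5, was at 85.9 and 93.6 CPM in AF and 145.7 and 116.8 CPM in GF, and Alas1, the first enzyme of haem synthesis, had the smallest p in GF versus SPF (-0.72). Pgrmc1, a haem-binding partner of cytochromes P450, was at 89.6 and 82.3 CPM in AF and 122 and 209.4 CPM in SPF.

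Most conjugation enzymes and transporters known as CAR or PXR targets had lower values in AF, without any passing the test. Of 25 listed genes 22 were tested, and 19 of 22 were lower in AF than in GF, with a median log2 fold change of -0.47 against -0.02 over all genes, 7 of 22 below an unadjusted p of 0.05 (3.60% of all genes) and 0 called (0.0147% of all genes). For AF versus SPF 19 of 22 were lower with a median of -0.91 and 12 of 22 below an unadjusted p of 0.05 (11.3% of all genes), and for GF versus SPF 20 of 22 with a median of -0.59 and 3 of 22 (6.71%), also with 0 called. The 12 enterocyte markers were lower as well, with medians of -0.63 for AF versus SPF (11 of 12 lower) and -0.60 for GF versus SPF (10 of 12). Their median for AF versus GF was -0.10 (7 of 12 lower). Values of the conjugation list scaled by enterocyte markers are not given here. Gstm2, a glutathione transferase of the mu class, had the smallest p in AF versus GF, at 4.71 and 5.53 CPM in AF, 22.8 and 14.6 CPM in GF, and 16.6 and 32.9 CPM in SPF (-1.87, SE 0.41, edgeR adjusted p = 1). Gstm3, of the same class, had it in AF versus SPF, at 22.8 and 26.5 CPM in AF, 138.2 and 111.3 CPM in GF, and 132.8 and 543.8 CPM in SPF (-3.78, SE 0.69, edgeR adjusted p = 0.304). For each of these genes AF lay below the other groups. Ugt1a9, a glucuronosyltransferase that shares exons with its Ugt1a neighbours and whose counts are uncertain for that reason, stood at 13.8 and 14.1 CPM in AF, 33.7 and 16.1 CPM in GF, and 5.5 and 7.27 CPM in SPF, lowest in SPF. Of 5 genes lowered by CAR or PXR in mouse liver 4 were tested and 0 were called. Pck1, of gluconeogenesis, stood at 112.8 and 70.8 CPM in AF, 379.8 and 474.5 CPM in GF, and 72 and 166.9 CPM in SPF. The GF values of Pck1 lay above those of AF and SPF.

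**Figure D5:**
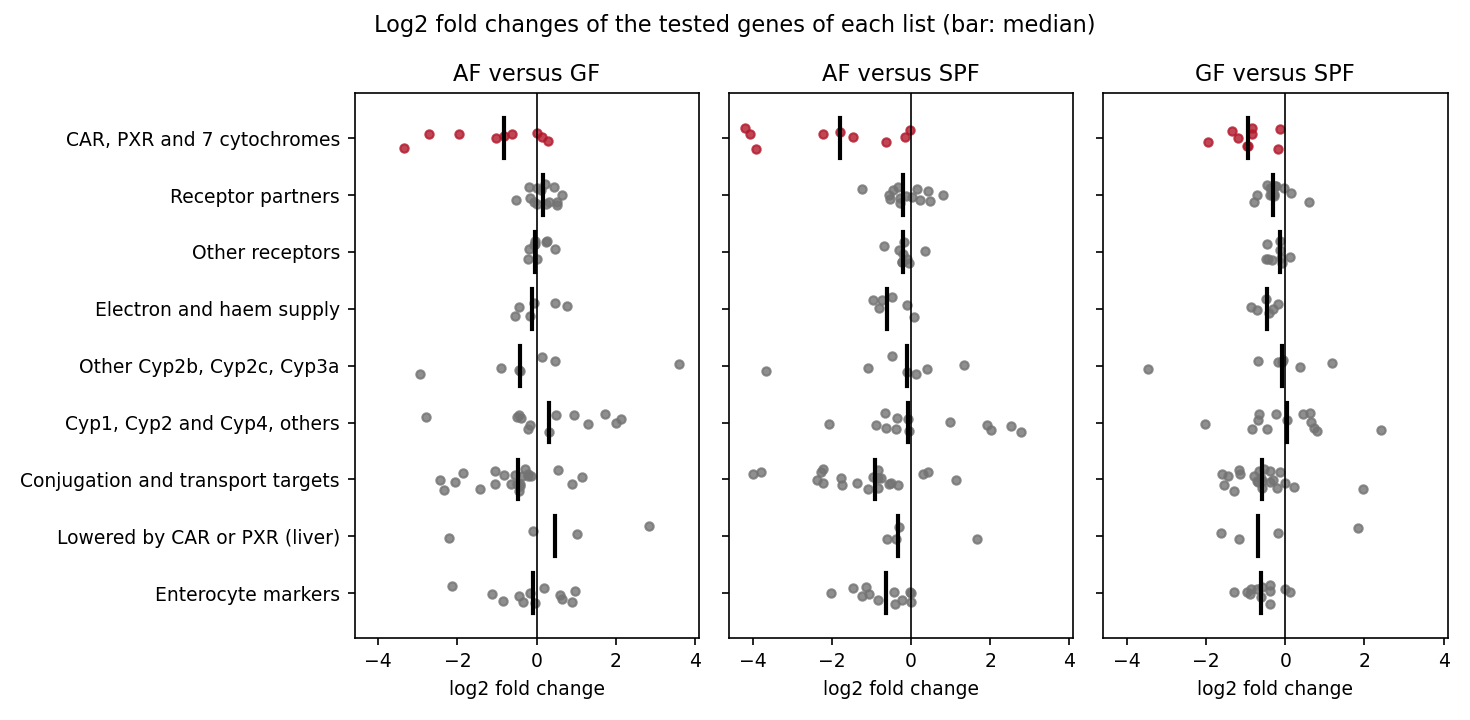
Log2 fold changes of the tested genes of each list in AF versus GF, AF versus SPF and GF versus SPF (x axes), one point per gene and a bar at the median of the list. The 9 receptors and cytochromes are in red; their median is -0.83 in AF versus GF, beside -0.47 for conjugation enzymes and transporters and 0.17 for receptor partners.

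The remaining cytochromes showed no common direction. Of 22 other Cyp2b, Cyp2c and Cyp3a genes 7 were tested, 4 of them lower in AF than in GF, and 0 were called in any comparison. Cyp3a44 was at 2.75 and 2.2 CPM in AF, 0.146 and 0.271 CPM in GF, and 1.69 and 2.88 CPM in SPF, lowest in GF, with the smallest p of its list in AF versus GF (3.58, SE 0.65, edgeR adjusted p = 1). Cyp2c68 was at 43.9 and 44.2 CPM in AF, 60.9 and 56.3 CPM in GF, and 44.7 and 79 CPM in SPF, and Cyp2c23 (also named Cyp2c44) at 1.81 and 2.38 CPM in AF, 2.26 and 3.53 CPM in GF, and 1.6 and 2.88 CPM in SPF. Among 13 tested cytochromes of families 1, 2 and 4, 7 were higher and 6 lower in AF than in GF, and 0 were called. In that comparison 4 of 13 were below an unadjusted p of 0.05 in edgeR's quasi-likelihood test (3.60% of all genes). Cyp2u1, a fatty acid hydroxylase, had the smallest p in all 3 pairs of groups, at 19.9 and 21.9 CPM in AF, 6.31 and 6.31 CPM in GF, and 3.85 and 3.43 CPM in SPF. Its log2 fold change was 1.73 (SE 0.24, edgeR adjusted p = 0.563) for AF versus GF and 2.52 (SE 0.25, edgeR adjusted p = 0.0965) for AF versus SPF, opposite in direction to Cyp2b10. Cyp1a1, picked from the same list with its values in view, went the way of Cyp2b10. It stood at 2.83 and 6.36 CPM in AF, 34.6 and 29.7 CPM in GF, and 6.92 and 32.4 CPM in SPF, with -2.80 (SE 0.77) for AF versus GF.

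The genes closest in pattern were found by the root mean square difference of log2 CPM, each gene centred on its mean over the 6 libraries, among all tested genes. For Cyp2b10 they were Ces1f, a carboxylesterase (0.31), Cyp2c55 (0.34) and Cbr3, a carbonyl reductase (0.44). For Cyp3a11 they were Gstm3 (0.35), Gstm1 (0.36) and Cyp2c55 (0.36), and for Cyp2c55 they were Gstm1 (0.22), Gstm3 (0.27) and Cyp2b10 (0.34). Ces1f was at 9.42 and 8.91 CPM in AF, 119.6 and 76.5 CPM in GF, and 73.9 and 203.5 CPM in SPF, with AF below all other libraries. Gstm1 was at 8.87 and 9.03 CPM in AF, 54.3 and 43.2 CPM in GF, and 47.1 and 238.1 CPM in SPF, a range like that of Cyp2c55, and RSEM divided reads among the similar Gstm genes. Cbr3 was low throughout, at 0 and 0.0594 CPM in AF, 1.02 and 1.42 CPM in GF, and 0.595 and 3.91 CPM in SPF. Neither receptor was among the 10 closest to Cyp2b10, Cyp3a11 or Cyp2c55. The measure counts the size of changes as well as their shape, so it cannot show whether the receptors followed the cytochromes. Nr1i2 ranged only from 70.5 to 122.9 CPM, against 16.2 to 493.3 CPM for Cyp2b10. For Nr1i2 the closest were Commd4 (0.05), Wwp2, a ubiquitin ligase (0.05), and Dop1b (0.06). These values describe 6 libraries that share their groups and carry no test.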

How the data were processed

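Per the labels, RNA of sorted small intestinal epithelium was made into TruSeq RNA libraries and sequenced on a NextSeq instrument, 2 libraries a group. STAR 2.5.2b, RSEM (no version), edgeR 3.16.5 and the GRCm38/mm10 build are listed, with no role given, in the submitters' processing notes. The sources used here state no annotation release, filter or strand setting. Per the file headers, the authors deposited RSEM expected counts per gene and TPM, which RSEM scales by effective length to a fixed total, together with a posterior standard deviation of the count, entered here as a signal column the authors deposited, and lengths, which are other values per the file headers. The log2 scale used here is not in the deposited tables.

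Expected counts were rounded (23.5% of the values above 0 were not whole). Symbols and coordinates came from GENCODE M21 on GRCm38, and 1 listed gene, Cyp2c44, was found as Cyp2c23 through a RefSeq synonym. filterByExpr left 13644 genes. Contrasts were tested by quasi-likelihood F tests (edgeR 4.0.16, legacy on, robust off) with all 6 libraries in 1 fit, TMM scaling, 3 residual and 3.08 prior degrees of freedom and a common coefficient of variation of 0.368. A gene counted as called when its Benjamini-Hochberg adjusted p was below 0.05. Standard errors are the absolute log2 fold change over the square root of F, and 95% intervals are approximate. The scripts were tested on simulated data. DESeq2 1.42.0, limma 3.58.1 and R 4.3.3 served the alternatives: the Wald test of DESeq2, the likelihood ratio test of edgeR, median-of-ratios, library total and enterocyte marker scaling, no filter, 1 CPM in 2 libraries, limma on log2(TPM + 1) and log2(TPM + 0.1), effective lengths as offsets, mitochondrial genes left out, only the groups compared, and each library left out in turn.

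The 9 genes, the lists and the tests were chosen with earlier results of these data known. Named beside the 9 were the gene of each list with the smallest p per comparison, other Cyp2b, Cyp2c and Cyp3a genes with a mean TPM of at least 1, and the 3 genes closest in pattern to Nr1i2, Cyp2b10, Cyp3a11 and Cyp2c55. Some genes that this rule names are not reported here. Upstream windows were read from RefSeq promoter entries of GRCm38.p6, in which all 9 genes matched by symbol.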

Additional observations from a re-analysis of the deposited data

How the results depend on the processing

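Adjusted over all genes, edgeR's quasi-likelihood test called 2 genes for GF versus SPF, 2 for AF versus GF, 6 for AF versus SPF and 4 for microbiota-free versus SPF, and 0 of the 9 receptors and cytochromes in each. The number of calls moved with the test, the filter and the SPF libraries, and the cause was not tested. In that order, all genes called were 80, 51, 272 and 248 with DESeq2, with 0, 2, 4 and 3 of the 9 and 3 for any difference among groups. They were 97, 53, 298 and 269 with the likelihood ratio test, with 0, 2, 3 and 3 of the 9 and 3 for any difference. Without a low-count filter they were 484, 264, 804 and 838, with 3, 4, 6 and 6 of the 9 and 6 for any difference; the prior degrees of freedom were then infinite. With library totals they were 0, 4, 7 and 0, with 1 of the 9 for AF versus SPF. Scaling by enterocyte markers gave 5 genes for AF versus GF and 11 for AF versus SPF, with 1 of the 9 in each and 1 for any difference. limma on log2(TPM + 1) gave 5, 9, 8 and 0, with 1 of the 9 for AF versus GF, 2 for AF versus SPF and 1 for any difference, and on log2(TPM + 0.1) 4, 5, 7 and 3, with 1 of the 9 for AF versus SPF and 1 for any difference. Effective lengths as offsets gave 1 gene for AF versus GF, and fits of only the groups compared gave 0, 8 and 2, with 2 of the 9 for AF versus GF. With each library left out in turn, genes called ranged from 0 to 402 for GF versus SPF, 0 to 11 for AF versus GF, 0 to 650 for AF versus SPF and 0 to 1090 for microbiota-free versus SPF, and of the 9 from 0 to 4, 0 to 2, 0 to 6 and 0 to 6, and 0 to 5 for any difference. The highest of these counts came without SPF replicate 3, where for AF versus GF leaving out SPF replicate 4 also gave 2 of the 9. With any 1 AF or GF library left out, 0 of the 9 were called.

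Of 639 values of single genes under alternatives, 533 kept direction and side of the threshold, 67 passed the threshold that had not, and 39 changed sign. Cyp2b10, Cyp2c55, Cyp3a11, Cyp3a25, Cyp2c65 and Cyp2c66 stayed lower in AF than in GF and than in SPF under every alternative run. Scalings moved the median of all genes: by library totals to 0.16 for GF versus SPF, -0.38 for AF versus GF and -0.20 for AF versus SPF, by enterocyte markers to 0.46, 0.13, 0.61 and 0.52 for microbiota-free versus SPF, and on log2(TPM + 1) to -0.36 for AF versus GF and -0.31 for AF versus SPF. The sign changes of the receptors and Cyp3a13 came with such a shift or with 1 library left out. With library totals Nr1i3 was 0.0133 for GF versus SPF, and for AF versus GF Nr1i2 was -0.19, Nr1i3 -0.30 and Cyp3a13 -0.0015. By enterocyte markers Nr1i2 and Nr1i3 were 0.38 and 0.42 for GF versus SPF, 0.65 and 0.59 for AF versus SPF (Cyp3a13 0.17), and 0.52 and 0.51 for microbiota-free versus SPF. For AF versus GF, Nr1i2, Nr1i3 and Cyp3a13 were -0.30, -0.39 and -0.12 on log2(TPM + 1), and -0.31, -0.40 and -0.12 on log2(TPM + 0.1). With each library left out, GF versus SPF ranged from -1.39 to 0.0941 for Cyp2b10, -2.06 to 0.15 for Cyp2c55, -1.39 to 0.0744 for Cyp2c65, -1.90 to 0.31 for Cyp2c66, -1.60 to 0.18 for Cyp3a25, -0.50 to 0.23 for Nr1i2 and -0.63 to 0.46 for Nr1i3. AF versus GF ranged from -0.21 to 0.48 for Nr1i2 and -0.21 to 0.29 for Nr1i3. AF versus SPF ranged from -0.36 to 0.36 for Nr1i2, -0.61 to 0.48 for Nr1i3 and -1.17 to 0.20 for Cyp3a13. Microbiota-free versus SPF ranged from -0.38 to 0.29 for Nr1i2, -0.62 to 0.47 for Nr1i3 and -1.31 to 0.0568 for Cyp3a13. In these fits a group has 1 library, whose spread is taken from the others. No paired analysis was possible because any 2 groups share only the replicate number 3. At these depths a floor of 3 counts stands at 0.109 to 0.236 CPM, below the level of all 9 genes in every library.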
